A study of Schizosaccharomyces pombe
Saccharomyces cerevisiae with 8 samples.

Results

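The ratio of newly synthesized to total RNA was examined for the 2821 transcripts listed in both deposited tables, 43.3% of the 6518 features of the total RNA table and all but 1 of the 2822 features of the newly synthesized RNA table. The cells were budding yeast (Saccharomyces cerevisiae, mating type alpha) that were given the carrier DMSO for 30 min without auxin and then 5 mM 4-thiouracil for 6 min. Newly synthesized RNA, purified through its 4-thiouracil label, and total RNA were each sequenced from 2 DMSO libraries. All cells, controls included, expressed the plant auxin receptor OsTIR1 from the GPD1 promoter at the HIS3 locus. They also carried IAA7 degron tags on the Mediator subunits Med14 (MED14-3HA-IAA7-URA3) and Med17 (MED17-3V5-IAA7-kanMX6), in a background with ade2, his3, leu2, lys2, met15, trp1 and ura3 deletions, a single strain. Auxin-treated cells of the same strain (500 µM auxin for 30 min) enter once, in the last comparison below, through their 2 total RNA libraries. Every culture was mixed with fission yeast (Schizosaccharomyces pombe) at 1 part to 3 parts before extraction.

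A short pulse of 4-thiouracil marks RNA made during the pulse, so the labelled fraction follows the rate of synthesis, while total RNA follows the amount that has built up. At steady state a transcript that is quickly degraded makes up a larger share of the labelled fraction than of total RNA, and a stable transcript a smaller share. In yeast, messages of ribosomal proteins and glycolytic enzymes are known as abundant and long-lived, and those of cyclins, transcription factors and other regulators as short-lived. The ratio has an arbitrary zero, because labelled RNA was purified before sequencing. Ratios are therefore given on the log2 scale relative to the median transcript, and "higher" or "lower" means a larger or smaller ratio than that transcript. Fewer copies made and more rapid loss of copies cannot be told apart for a single fraction, and the ratio does not separate RNA decay from differences in how well a transcript was labelled or purified.

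Newly synthesized RNA counts over the 2821 transcripts summed to 13125021 and 15743934, and total RNA counts to 10565825 and 7952242. These total RNA sums are 60.4% and 61.2% of all counts in their table. The newly synthesized RNA table held only features with the lowest p-values of the authors' auxin test, so the transcripts are a selected part of the genome and the median transcript is the median of that part. They were more abundant than the other total RNA features with at least 10 counts, with a median of 775 against 480 normalized counts per kb, and longer, with a median of 1296 against 1101 bases. The lowest mean was 152 counts in newly synthesized RNA and 20 in total RNA, each taken over all transcripts on its own. All 2821 thus passed the minimum of 10 counts, and 71 had a mean below 100 total RNA counts. The strain's mating type matched its genes: STE3, the a-factor receptor of alpha cells, had 10553 and 14012 counts in newly synthesized RNA and 4414 and 3544 in total RNA, whereas the a-cell genes BAR1 (22 and 19) and AGA2 (1 and 0) were near 0 in total RNA. The total RNA features described as the enzymes of ADE2 (15 and 10 counts) and TRP1 (9 and 6), both deleted in the strain, were also near 0. URA3 (YEL021W), deleted as well but carried by the tag cassette of MED14, had 2099 and 1745 total RNA counts and is among the 2821. No feature carries the names LEU2, LYS2, HIS3 or MET17 (the met15 of the genotype), so no counts are given for these deletions. The same holds for the a-cell genes STE2, MFA1, MFA2 and ASG7.

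The ratios spanned a wide range. edgeR's quasi-likelihood test called 866 transcripts higher (30.7% of those tested) and 940 lower (33.3%) than the median transcript at a Benjamini-Hochberg adjusted p below 0.05, and 1015 were not called. Either call was made for 64.0% of transcripts, and 1871 had an unadjusted p below 0.05. The 30.7% called higher and 33.3% called lower are the shares beside which counts of any list below are to be read. A log2 ratio of at least 1 in size was reached by 262 of those called higher (9.29%) and 449 of those called lower (15.9%). The middle part of the distribution lay between quartiles of -0.59 and 0.48, and the ends reached -4.98 and 3.44. Between the 5th and 95th percentiles the ratio differed 9.99-fold. The ratio of the replicate 1 libraries and that of the replicate 2 libraries had a median absolute log2 difference of 0.12, and for 8 transcripts it was 1 or more, so the range across transcripts was far larger than the spread between libraries. The lower end repeated closely, with 5th percentiles of -2.02 and -2.07, whereas the upper end was further out in replicate 2, with 95th percentiles of 1.16 and 1.45. Without total RNA replicate 2 the transcripts called higher numbered 505, all of them among the 866.

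**Figure D1:**
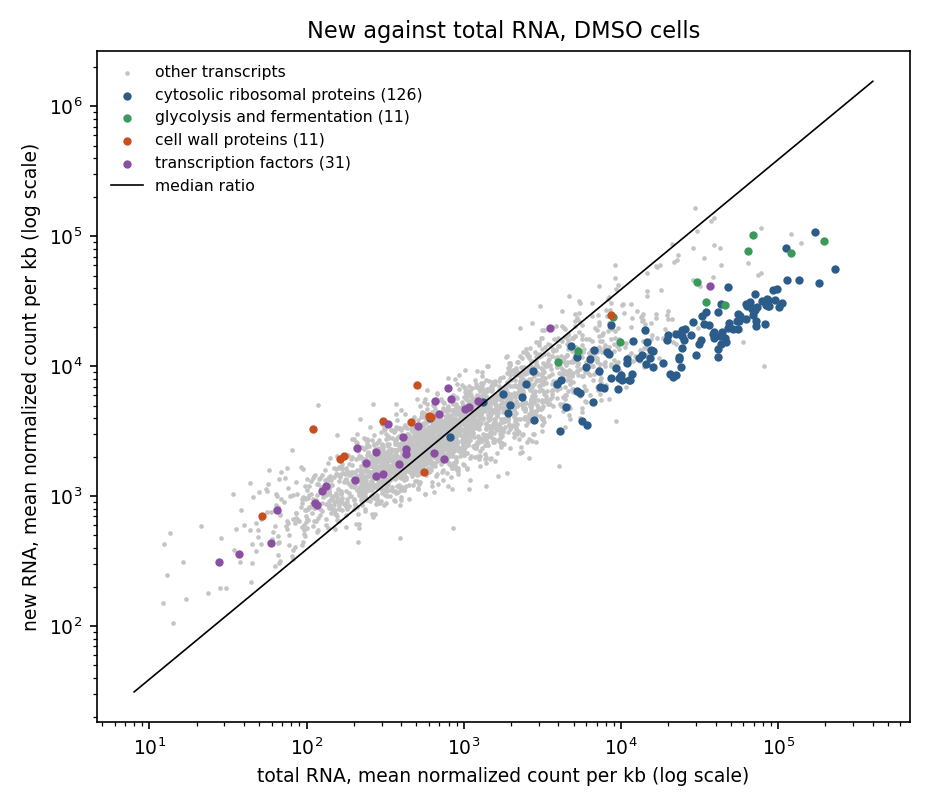
Mean normalized count per kb of newly synthesized RNA (y axis, log scale) against total RNA (x axis, log scale) for the 2821 transcripts in DMSO, each point the mean of 2 libraries per fraction, with 4 gene lists coloured and the line at the median ratio of 3.91 on the authors' scale. Ribosomal protein transcripts lie at the right and below the line, cell wall and transcription factor transcripts mostly above it.

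Cytosolic ribosomal protein transcripts had the lowest ratios of any large group. By edgeR 121 of 126 transcripts were lower, 1 was higher and 4 fell in neither class. The median log2 ratio of the list was -2.63, or 6.19-fold below the median transcript. They made up 5.18% and 5.33% of the summed normalized signal of the 2821 transcripts in newly synthesized RNA and 21.7% and 24.7% in total RNA. Both newly synthesized libraries thus lay below both total RNA libraries. In total RNA the list's median ran 0.21 higher on the log2 scale in replicate 2 than in replicate 1, relative to all transcripts, and 0.05 higher in newly synthesized RNA.

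RPS12 (YOR369C, chromosome XV 1028194 to 1028625), a protein of the small ribosomal subunit, had the lowest ratio of all coding transcripts. It had 17626 and 20186 normalized counts in newly synthesized RNA and 67779 and 89551 in total RNA. Its log2 ratio was -4.02 (SE 0.201, edgeR adjusted p = 1.04e-83), since the median transcript had 3.91 times as many normalized counts in newly synthesized as in total RNA. RPS31, which encodes a ribosomal protein fused to ubiquitin (YLR167W), followed at -4.00, with 23635 and 28082 normalized counts in newly synthesized RNA and 89435 and 122074 in total RNA. RPS25A had 6489 and 7369.7 against 23874 and 30333, a log2 ratio of -3.93. For each of these 3 genes both newly synthesized libraries were below both total RNA libraries even before the shift to the median transcript.

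Of the 12 named transcripts with the lowest ratios, 11 encode ribosomal proteins, and 10 of those belong to the small subunit: after RPS12, RPS31 and RPS25A these were RPS17A (-3.78), RPS23B (-3.77), RPS1B (-3.74), RPS18A (-3.66), RPS24A (-3.57), RPS17B (-3.56) and RPS9B (-3.56). RPL9A (-3.77), of the large subunit, was the other. Over the whole list, 53 small subunit transcripts had a median of -2.98, 68 large subunit transcripts -2.41, and the 5 of the acidic stalk, which binds elongation factors, -3.19. The stalk transcript with the lowest ratio, RPP1A, had 5827 and 6560.5 normalized counts in newly synthesized RNA and 16226 and 19418 in total RNA. The quartiles of the small subunit (-3.34 and -2.20) and the large subunit (-3.21 and -2.04) overlapped broadly, and no test of the difference was made.

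Many yeast ribosomal proteins are encoded by a pair of near-identical genes, and among 51 pairs with both copies present the copies often differed. The median difference was 0.68 on the log2 scale, and 17 pairs differed by at least 1. In 47 of the 51 pairs the copy with the higher ratio had less total RNA, which is also the denominator of the ratio. RPS7A had 14585 and 16776 normalized counts in newly synthesized RNA and 35183 and 45859.8 in total RNA, a log2 ratio of -3.34. RPS7B had 3387 and 3663 in newly synthesized RNA and 984 and 1056 in total RNA, a ratio of -0.18 that was not called. Newly synthesized RPS7A and RPS7B thus differed far less than their total RNA. RPL7B, the single ribosomal protein transcript called higher, stood at 0.74 against -2.15 for RPL7A, had 2731 and 3118 against 498 and 391 normalized counts, overlaps 2 other features, and was not called without total RNA replicate 2 (0.53, edgeR adjusted p = 0.114). How reads shared between copies were assigned is not given in the sources used here, so values of single copies are uncertain. Outside these pairs, RPS15 (2101 and 2493 against 542 and 602) lay at 0.04, at the level of the median transcript, and was not called.

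**Figure D2:**
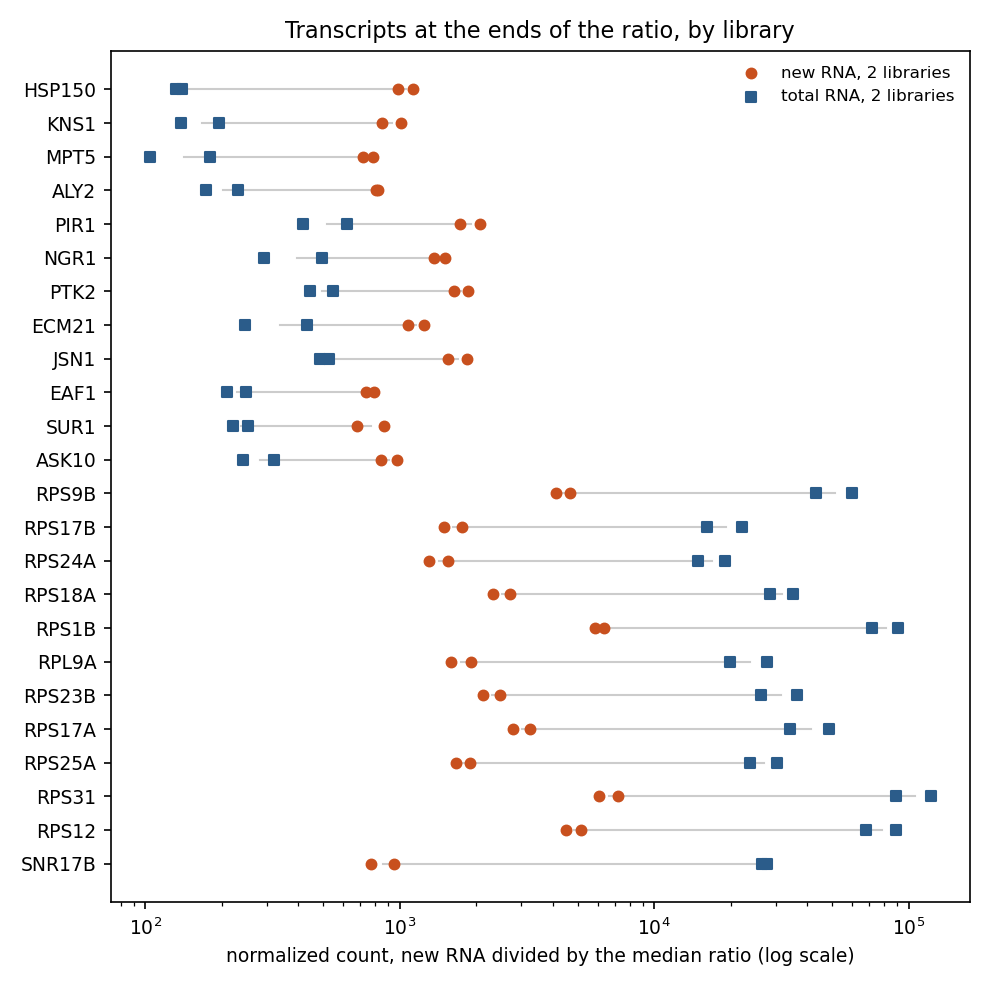
Normalized counts (x axis, log scale) of the 12 named transcripts with the highest and the 12 with the lowest ratio, with newly synthesized RNA divided by the median ratio of 3.91 so that equal positions mean the ratio of the median transcript, and total RNA as squares, 2 libraries each. From HSP150 to ASK10 newly synthesized RNA lies right of total RNA, and from RPS9B to SNR17B it lies left of it.

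Transcripts of the glycolytic enzymes also had low ratios. All 11 of the glycolysis and fermentation list were called lower, with a median of -1.42, and 9 or 10 were when 1 library was left out. The deposited annotation of the glycolytic process also holds members that were not called, YFR053C (-0.06) and YOR347C (0.15). The 11 held 2.69% and 2.76% of the summed signal in newly synthesized RNA and 6.92% and 6.66% in total RNA. FBA1, the aldolase of glycolysis (YKL060C, chromosome XI 326408 to 327487), had 94413 and 106107 normalized counts in newly synthesized RNA and 194502 and 230872 in total RNA. Its log2 ratio was -3.05 (SE 0.195, edgeR adjusted p = 3.05e-52), and both newly synthesized libraries were below both total RNA libraries. ADH1, the alcohol dehydrogenase of fermentation, stood at -2.67, CDC19, pyruvate kinase, at -2.60, and PGI1, phosphoglucose isomerase, at -2.11. The unnamed transcripts described as phosphoglycerate mutase (YKL152C, -2.63) and triose phosphate isomerase (YDR050C, -2.54) were as low. At the other end TDH1, an isozyme of glyceraldehyde-3-phosphate dehydrogenase, had 9474 and 12144 against 3647 and 4301 normalized counts, a log2 ratio of -0.52. TDH2 was at -0.54 and TDH3 at -1.40. These 3 isozymes are similar in sequence, though not equally so, and some reads may be shared among them.

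The machinery of translation beyond the ribosome was lower in most parts and uneven in others. Of 18 translation factors 12 were called lower and 4 higher, with a median of -0.65. TEF1, elongation factor 1 alpha, was the lowest at -2.54, with 15695 and 16499 normalized counts in newly synthesized RNA and 21970.4 and 25818 in total RNA. It has a copy of the same protein, so its reads may be shared. YEF3, the fungal elongation factor 3, was at -2.02 and CDC33, the cap-binding protein eIF4E, at -1.82. The 4 called higher were TEF4, of elongation factor 1 gamma, GCD14, of a transfer RNA methyltransferase, TIF4632, an eIF4G, and RPG1, of eIF3. Their ratios lay between 0.36 and 0.54. Of these 4, 2 were called without newly synthesized replicate 1, 1 without newly synthesized replicate 2, 1 without total RNA replicate 1 and 0 without total RNA replicate 2. All 8 aminoacyl-tRNA synthetases, which charge transfer RNAs, were lower with a median of -1.17, from DED81 (-1.77) to FRS2 (-0.47). Ribosome biogenesis factors lay near the median transcript: of 14, 2 were lower, 0 higher and 12 not called, with a median of -0.06. Their calls depend on the scaling, with 4 higher and 5 lower under TMM, 2 and 5 under library totals, and 1 and 3 by DESeq2. The 2 lower were NOP56 (-1.17) and NOP58 (-0.60), core proteins of C/D small nucleolar ribonucleoproteins whose features overlap 1 other each. NOP1, another core protein, stood highest at 0.33 and was not called, but was called under TMM, library totals and DESeq2. Of 17 mitochondrial ribosomal proteins 8 were lower and 1 higher, with a median of -0.34, from MRPS18 (-1.29) to MRPL35 (0.68), and the number lower was 5 without newly synthesized replicate 2, 2 without total RNA replicate 1 and 3 without total RNA replicate 2. Under library totals 2 were higher and 12 lower, and under TMM 2 and 10. MRPL35 was not called without total RNA replicate 1.

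Enzymes of biosynthesis and housekeeping complexes had mostly low ratios. In ergosterol synthesis 9 of 10 named transcripts were lower and 1 higher, with a median of -1.07. The deposited annotation also holds unnamed members. Of these YML075C, described as an HMG-CoA reductase, was higher (0.49, edgeR adjusted p = 0.0034). YLR450W (0.19), described as the same enzyme, and YHR072W (-0.32), lanosterol synthase, were not called, and the other unnamed members were lower. ERG2, a sterol isomerase, had 3508 and 3911 normalized counts in newly synthesized RNA and 4589 and 5417 in total RNA, a log2 ratio of -2.40. ERG5, a cytochrome P450 desaturase of the same pathway, had 7379.8 and 8906 against 982 and 1085, a ratio of 1.01 (SE 0.162, edgeR adjusted p = 1.81e-09). In both genes the libraries of each fraction lay close together, and the genes stood on opposite sides of the median transcript. Amino acid synthesis had 7 lower and 1 higher of 12 (median -0.81), from LYS9 (-2.09), the last-but-one step of lysine synthesis, to CYS3 (1.15), which makes cysteine from cystathionine. Under TMM, library totals and DESeq2, 11 of the 12 were lower. CYS3 had 21950.1 and 25252 normalized counts in newly synthesized RNA and 2412 and 3018 in total RNA. Among 5 sulfur assimilation and methionine transcripts, CYS3 included, 1 was higher and 2 lower (median -0.32), the lowest being SAM1 (-1.10), which makes S-adenosylmethionine. Without any 1 of the 4 libraries 1 of these 5 was called lower, and under TMM, library totals and DESeq2 2 were higher and 3 lower.

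Proteasome subunits numbered 19, with 12 lower, 2 higher and 5 not called (median -0.52). SEM1, a small subunit of the lid, was lowest at -1.62, and RPN1, a large subunit of the base, highest at 0.43. The calls of RPN1 and SCL1 (0.39) were lost without any 1 of the 4 libraries. Of 10 chaperones driven by the heat shock factor Hsf1, 5 were lower and 0 higher (median -0.32), from HSP10 (-1.54) to SSA4 (0.13, not called), and 3 were lower without newly synthesized replicate 1 or 2. Among 3 proton pump transcripts all were lower (median -1.37): VMA3 of the vacuolar ATPase at -2.00, VMA13 at -1.37 and PMA1, the plasma membrane pump, at -0.95. PMA1 had 176274 and 198471 normalized counts in newly synthesized RNA, against 85294 and 99891 in total RNA. Nuclear-encoded respiration had 4 lower and 2 higher of 8 (median -0.34), with CYC1, cytochrome c, at -1.31 and SDH1, of succinate dehydrogenase, at 1.27.

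Cell wall proteins were the list with the highest ratios. Of 11, edgeR called 9 higher and 2 lower, with a median of 1.57, beside 30.7% called higher over all transcripts. HSP150 (YJL159W, chromosome X 120449 to 121690), a secreted mannoprotein that is bound to cell wall glucan, had 3838 and 4401 normalized counts in newly synthesized RNA and 139.9 and 132 in total RNA. Its log2 ratio was 2.95 (SE 0.196, edgeR adjusted p = 1.84e-48), 7.73-fold above the median transcript, with no overlap of the fractions. PIR1 (YKL164C), another such protein, had 6749.7 and 8095 normalized counts against 621 and 416, a log2 ratio of 1.86. The mannoproteins CWP1 (1.76) and CCW14 (1.66) and the wall stress sensors WSC2 (1.60) and MID2 (1.57) were also higher. CIS3, a relative of PIR1, went the other way at -0.53, with 945 and 1148 against 445 and 321, but was not called without total RNA replicate 1 (-0.19, edgeR adjusted p = 0.581). In total RNA the list's median was 0.20 lower in replicate 2 than in replicate 1 relative to all transcripts, a log2 difference of -0.20, and in newly synthesized RNA it was 0.06 higher. GAS1 (-0.45), a glucan-modifying enzyme, was the other lower. Without newly synthesized replicate 1 or total RNA replicate 1 the list had 0 lower, and without newly synthesized replicate 2 or total RNA replicate 2 it had 1, while 8 or 9 were higher in each case.

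Some cyclins and other cell cycle regulators, picked here by their values, reached some of the highest ratios. CLN3 (YAL040C, chromosome I 65778 to 67520), the cyclin that starts the passage from G1 to S phase, had 721 and 780.3 normalized counts in newly synthesized RNA and 22.9 and 20.6 in total RNA. Its log2 ratio was 3.13 (SE 0.260, edgeR adjusted p = 1.38e-31), the third highest of all, on raw counts of 442 and 513 against 25 and 15. The unnamed transcript YPL256C, described as a G1 cyclin of late G1, had 2520.3 and 2990.5 against 189 and 114 normalized counts, a log2 ratio of 2.19. YNL197C, described as a protein that holds CLN3 messages in cytoplasmic foci, had 4161 and 4890.3 against 178 and 144 (2.83). YCR065W, described as a forkhead factor of S phase, had 1812 and 2446 against 82.3 and 65.9 (2.86). In all 4 the fractions did not overlap, as in 81.8% of all transcripts. CDC20, an activator of the anaphase-promoting complex, stood at 1.23. In cultures that hold all phases of the cycle, the levels in both fractions are averages over cells, and phases were not separated here.

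Not every cell cycle transcript was high. Of 7 G1/S transcripts 2 were higher (28.6%, beside 30.7% of all transcripts) and 1 lower (14.3%, beside 33.3%), with a median of 0.08. The higher were CLN3 and the kinase SWE1 (0.41). The lower was RFA2 (-1.23), a subunit of the single-strand DNA binding protein RPA. Relative to length classes the list's median was -0.26 (1 above and 6 below). Of 3 G2/M transcripts 2 were higher (median 0.36), CDC20 and HOF1, a cytokinesis protein, while the mitotic cyclin CLB1 (-0.04) was not called. Without any 1 of the 4 libraries 1 transcript of each list was higher. By the deposited annotation 13 regulators of cyclin-dependent kinases were present, of which 9 were higher and 0 lower (median 0.72).

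Transcription factors were higher in most cases. Of 31 sequence-specific factors, 22 were called higher and 2 lower, with a median of 0.80, and without 1 library 18 to 22 were called higher. Without total RNA replicate 2, 1 was lower. UME6, a repressor of meiotic genes, was highest at 1.64, with 1714 and 2247 normalized counts in newly synthesized RNA and 155 and 172 in total RNA, so that the fractions did not overlap. GAL4, the activator of galactose genes, followed at 1.54, SKN7, of the oxidative stress response, at 1.49, and SFP1, an activator of ribosomal protein genes, at 1.46. GCN4, the activator of amino acid synthesis, was nearer the median transcript at 0.52. General regulators with many targets were not called: RAP1 (0.25), ABF1 (0.17) and CBF1 (0.21). HAC1, the factor of the unfolded protein response, was the exception at -1.80, with 27373 and 32043 normalized counts in newly synthesized RNA and 24214 and 28641 in total RNA. HAC1 RNA holds an intron that is removed outside the nucleus when the response is induced, and its feature overlaps 1 other. The other factor called lower was CUP2 (-0.60), which also overlaps 1 other feature.

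Proteins that bind or degrade messenger RNA were themselves made from transcripts with high ratios in several cases. Of 10 mRNA decay transcripts 5 were higher and 2 lower (median 0.52), beside 30.7% higher and 33.3% lower over all transcripts. They were long, with a median of 2452.5 bases, and relative to their length classes the median was 0.16 (6 above and 4 below). MPT5 (YGL178W, chromosome VII 167352 to 170571), a Pumilio-family repressor, had 2808 and 3076 normalized counts in newly synthesized RNA and 179 and 104 in total RNA, a log2 ratio of 2.37 (SE 0.192, edgeR adjusted p = 2.48e-33), and overlaps 1 other feature. PAT1, an activator of decapping, stood at 1.56, CDC39 at 1.26 and CCR4 at 0.85, both of the Ccr4-Not deadenylase. CDC36 (-1.23), of the same complex, and LSM2 (-1.17), of the ring that binds the ends of deadenylated messages, were lower. JSN1, another Pumilio-family protein, had 6071 and 7204 against 529 and 488 (1.74). NGR1, an RNA-binding protein, had 5325 and 5888 against 494 and 294 (1.85).

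The other named transcripts at the top had varied roles. KNS1, a protein kinase that acts on RNA polymerase III, had 3317 and 3950.3 normalized counts in newly synthesized RNA and 196 and 139 in total RNA (2.45), and its feature overlaps 2 others. ALY2 (1.99) and ECM21 (1.76) encode arrestin-like adaptors for the uptake of plasma membrane transporters, and PTK2 (1.81) a kinase that regulates ion transport. ALY2 had 3142 and 3223 against 231 and 173, and ECM21 4209.8 and 4859.9 against 431 and 247. SUR1, of sphingolipid synthesis (1.71), EAF1, of the NuA4 acetyltransferase (1.72, overlapping 1 other feature), and ASK10 (1.68), a regulator of the glycerol channel, complete the 12. All 12 remained above 0 and called under each alternative scaling, test and left-out library.

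Some transcripts without a gene name stood further out, and were singled out after their values were seen. YPR036W-A, described as a small protein of sporulation, had the highest ratio, with 942 and 1107 normalized counts in newly synthesized RNA and 23.8 and 24.7 in total RNA (3.44, raw total RNA counts of 26 and 18). YGR023W, described as a plasma membrane sensor of cell integrity signalling, was second at 3.33, on 22 and 18 raw total RNA counts, and its feature overlaps 1 other. YGR054W, described as the initiation factor eIF2A, stood at 2.31. PRM7, a pheromone-regulated membrane protein, stood at 2.85 but rests on uneven total RNA counts of 124 and 22. At the low end without a name were YBL001C (-3.27), of unknown function, YAL044C (-3.21), described as a subunit of the mitochondrial glycine decarboxylase, and YDR385W (-2.37), described as elongation factor 2, which has a second gene of the same protein.

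**Figure D3:**
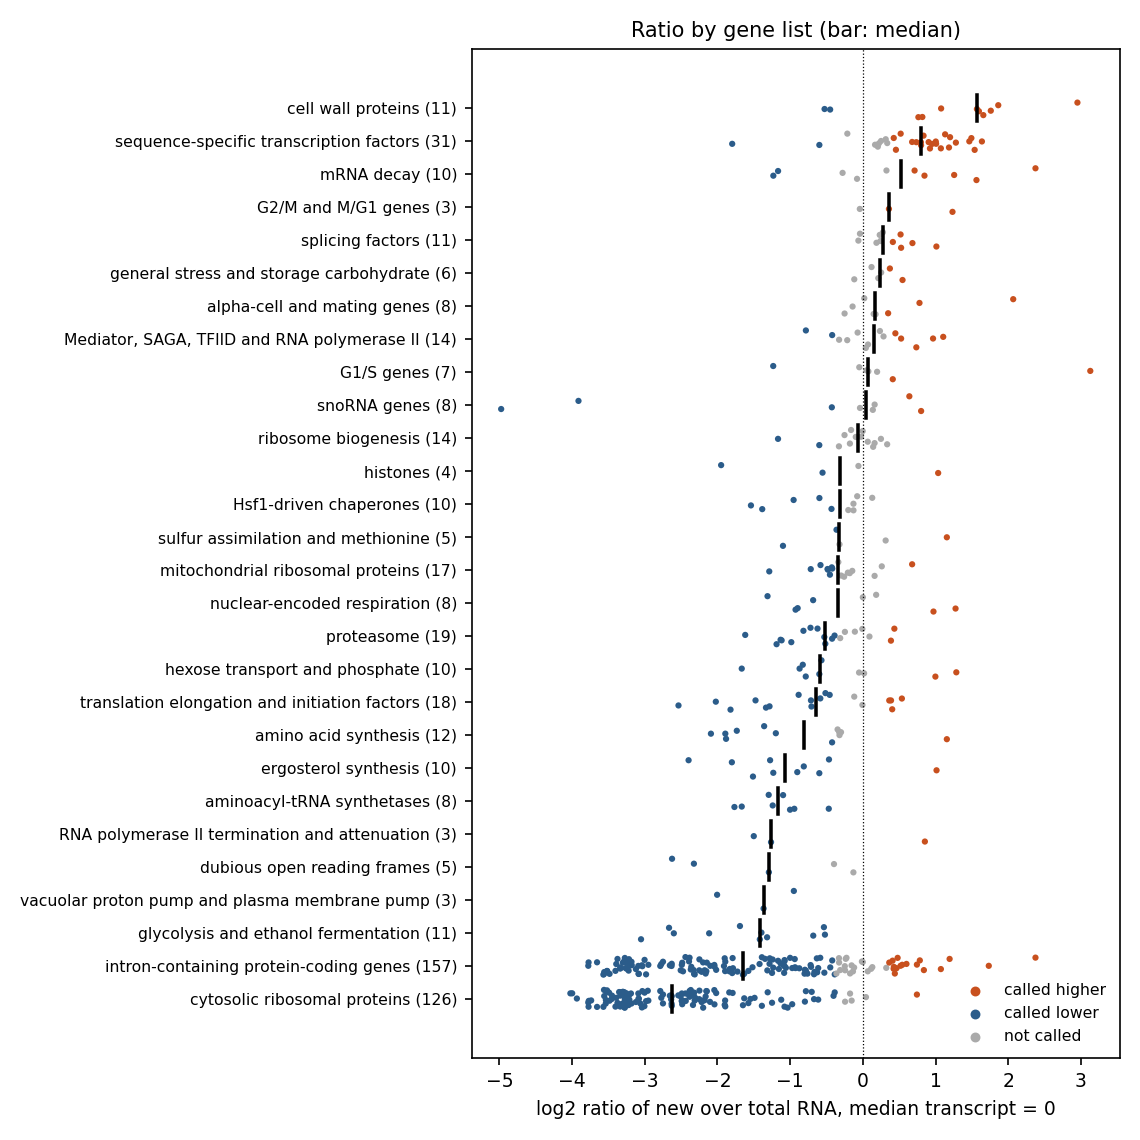
Log2 ratio of newly synthesized over total RNA relative to the median transcript (x axis) for the members of each of the 28 gene lists (rows, with the number present), each point 1 transcript, coloured by its edgeR call, and each bar the list's median. Medians run from 1.57 for cell wall proteins to -2.63 for cytosolic ribosomal proteins, and most lists span the zero line.

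Lists of phosphate, histone and transcription machinery genes held both high and low members, and the mating list held high members and members near the median transcript. Of 8 alpha-cell and mating transcripts 3 were higher (37.5%, beside 30.7% of all transcripts) and 0 lower (beside 33.3%), with a median of 0.16. AGA1, described as the anchor subunit of the a-agglutinin of a-cells, was the highest of the list at 2.07. It had 932 and 1154.5 normalized counts in newly synthesized RNA and 76.8 and 46.7 in total RNA. The abundant alpha-cell transcripts MF(ALPHA)1 (-0.14), SAG1 (-0.25) and STE3 (0.15) were not called. Among 10 hexose transport and phosphate transcripts 2 were higher and 6 lower (median -0.58). PHO84, the phosphate transporter, had 47405 and 55900.2 normalized counts in newly synthesized RNA and 5328 and 5519 in total RNA, a log2 ratio of 1.29. PHO5, an acid phosphatase controlled by the same factor, had 3668 and 4083 against 3074 and 3222, a log2 ratio of -1.67. Newly synthesized RNA of the transporter and the phosphatase thus differed more than their total RNA did.

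Of 4 histone transcripts, 1 was higher and 2 lower (median -0.31). HTB1, a histone H2B, had 1766 and 1947 normalized counts in newly synthesized RNA and 262 and 198 in total RNA (1.04), and HTA2, a histone H2A, had 4786 and 5861 against 4853 and 5677 (-1.95). Both have a near-identical second gene, so reads may be shared. CSE4, the centromeric histone (-0.55), was also lower and HTZ1 (-0.06), a variant H2A, was not called. Without total RNA replicate 1 or 2, 1 of the 4 was lower. Among 14 transcripts of Mediator, SAGA, TFIID and RNA polymerase II, 5 were higher (35.7%, beside 30.7% of all transcripts) and 2 lower (14.3%, beside 33.3%), with a median of 0.15, from ROX3 (-0.78) to GAL11 (1.10), both of Mediator, and GAL11 overlaps 1 other feature. Without any 1 of the 4 libraries 1 was lower, and without total RNA replicate 2, 3 were higher. Under TMM 7 were higher and 4 lower, and under library totals 6 and 4. SRB4, which encodes the degron-tagged Med17, stood at -0.07 and was not called. Of 11 splicing factors 5 were higher and 0 lower (median 0.28), from PRP6 (-0.06) to CEF1 (1.01), and 3 were higher without total RNA replicate 1 and 1 without total RNA replicate 2, against 9 under TMM or library totals. Of 6 general stress and storage carbohydrate transcripts 2 were higher (33.3%, beside 30.7% of all transcripts) and 0 lower (median 0.23), from TPS1 (-0.12) to TPS2 (0.55). Without total RNA replicate 1 or 2, 0 of these 6 were higher, and without newly synthesized replicate 1 or 2, 1 was. Of 3 termination and attenuation transcripts 1 was higher, CFT2 (0.85), a cleavage factor, and 2 were lower (median -1.26), IMD2 (-1.50) and ADE12 (-1.26) of purine synthesis.

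Small nucleolar RNAs, which guide the modification and cleavage of ribosomal RNA and carry no poly(A) tail when mature, were split. The total RNA table lists 77, of which 8 were present. Of these 3 were lower (37.5%, beside 33.3% of all transcripts), 2 higher (25%, beside 30.7%) and 3 not called (median 0.05). SNR17B, a U3 RNA (chromosome XVI 281056 to 281517), had the lowest ratio of all 2821 transcripts, with 3018 and 3716 normalized counts in newly synthesized RNA and 27690.0 and 26524 in total RNA. Its log2 ratio was -4.98 (SE 0.205, edgeR adjusted p = 1.78e-120), 31.5-fold below the median transcript. U3 has a second, near-identical gene. The C/D box RNA snR190 was at -3.91, with 2452 and 3449.8 against 10216 and 12527. SNR76 (0.64) and SNR77 (0.80) were higher, on 155 and 65 raw total RNA counts for SNR77, and neither was called without total RNA replicate 2.

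Genes whose genomic span is longer than their listed length, the mark of an intron, numbered 157 of 272, with 17 higher and 122 lower (median -1.65), and 6 higher without total RNA replicate 2. Ribosomal protein genes account for 85 of these. Within the ribosomal protein list, transcripts with a longer span had a median of -2.51 and those without -2.75. Other coding transcripts with a longer span numbered 72, of which 16 were higher and 40 lower, and their median of -0.61 compares with 0.05 for the 2612 without. They were also shorter, with a median coding length of 930 against 1356 bases, and relative to their length classes the medians were -0.13 (32 above and 40 below) and 0.02. The lowest of the 72 was ASC1 (-3.18), a protein bound to the small ribosomal subunit, and the highest MPT5. Of 483 dubious reading frames 5 were present, 3 lower and 0 higher (median -1.29), and 4 overlap another feature. Their median length was 351 bases, and relative to their length class their median was -0.16 (1 above and 4 below). The small nucleolar RNAs, with a median length of 122.5 bases, had a median of 1.18 relative to theirs (6 above and 2 below).

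Coding length and the level of total RNA moved with the ratio across the transcripts. In 10 equal classes of coding length the median log2 ratio ran -1.13, -0.63, -0.31, -0.15, 0.01, 0.00, 0.18, 0.30, 0.42 and 0.45 from the shortest to the longest. Without ribosomal protein genes the shortest class, with a median of 441 bases, stood at -0.73. Longer transcripts hold more uracils to be labelled, and the part of length in these ratios was not tested. After subtracting the median of each transcript's length class, an alternative chosen after seeing the data, ribosomal proteins stood at -1.77 (117 of 126 below their class), glycolysis at -1.42 (11 of 11 below), cell wall proteins at 1.56 (10 of 11 above) and transcription factors at 0.50 (26 of 31 above). The medians of mitochondrial ribosomal proteins (0.30), histones (0.57), G1/S transcripts (-0.26) and general stress transcripts (-0.01) changed sign.

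In 10 equal classes of total RNA per kb the median log2 ratio ran 1.06, 0.61, 0.32, 0.20, 0.08, -0.16, -0.23, -0.53, -0.79 and -1.86 from the least to the most abundant. Total RNA is the denominator of the ratio, so errors in it alone would bend the classes this way. With the classes taken from replicate 2 and the ratio from replicate 1, so that no library entered both, the ends were 0.93 and -1.85. Relative to length classes they were 0.87 and -1.34, and the most abundant class without ribosomal protein genes stood at -1.36. In the least abundant class 252 of 283 transcripts were called higher and 0 lower, and in the most abundant class 4 of 282 were higher and 258 lower. Across the 2821 transcripts newly synthesized and total RNA per kb were ranked alike (Spearman rho 0.897, a description over transcripts of the same libraries), while the most abundant 282 transcripts of each library held 48.6% and 48.0% of the summed signal in newly synthesized RNA and 64.1% and 65.8% in total RNA.

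**Figure D4:**
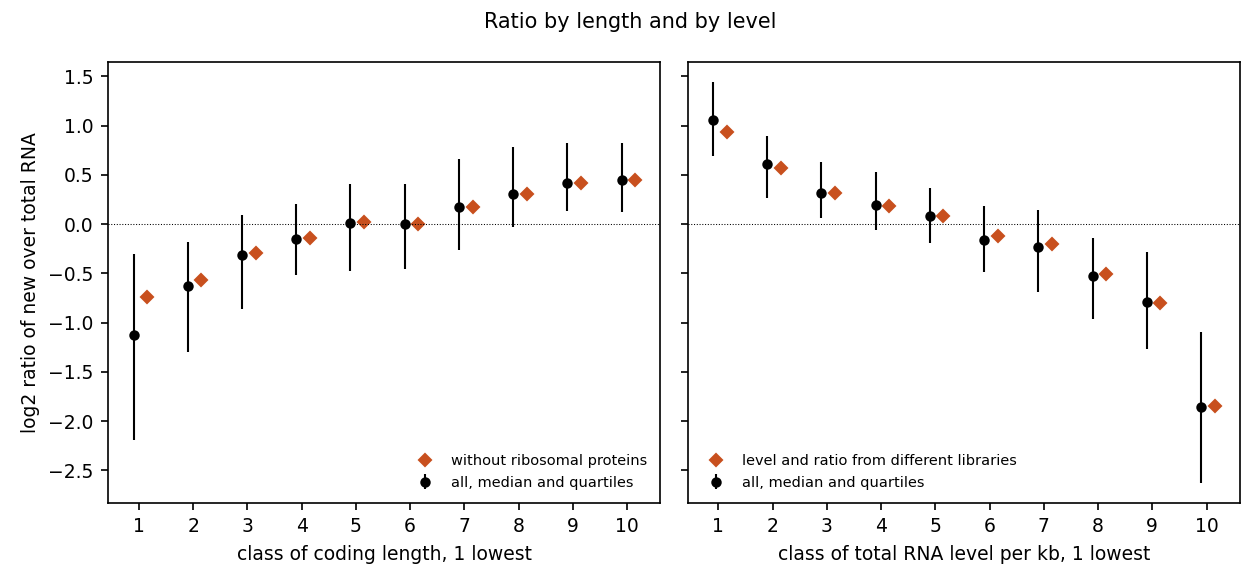
Median log2 ratio of newly synthesized over total RNA (y axis) in 10 equal classes of coding length (left) and of total RNA per kb (right), with quartiles as bars. Orange diamonds leave out ribosomal protein genes (left) or take level and ratio from different libraries (right). The ratio climbs with length to 0.45 and drops with level to -1.86.

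The same strain allowed the ratio in DMSO to be set beside the total RNA left after 30 min of auxin, when both tagged Mediator subunits are meant to be degraded. The transcripts come from the lowest p-values of the authors' test of newly synthesized RNA in auxin against DMSO, so they were selected on a response to auxin. No library entered both quantities: the ratio came from replicate 1 and the change from both auxin libraries against total RNA replicate 2, or with the replicates exchanged. Both arrangements share the 2 auxin libraries. In the lowest of 10 equal classes of the ratio, the median total RNA after auxin was 72.3% of DMSO by the first arrangement and 81.1% by the second. The next classes stood at 36.6% and 39.6%, at 28.5% and 30.2%, and at 24.0% and 25.6%. From the 5th class upward the median lay between 19.8% and 20.8% by the first arrangement, and by the second it was 24.2% in the 5th and 17.6% in the 10th. The classes with the lowest ratios thus kept more of their RNA, and from the 5th class upward the medians differed little by the first arrangement. Without ribosomal protein genes the lowest class kept 63.3% and 68.5%. The authors' size factors set these levels, and with 2 auxin and 2 DMSO libraries the classes are given as a description, with no test.

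**Figure D5:**
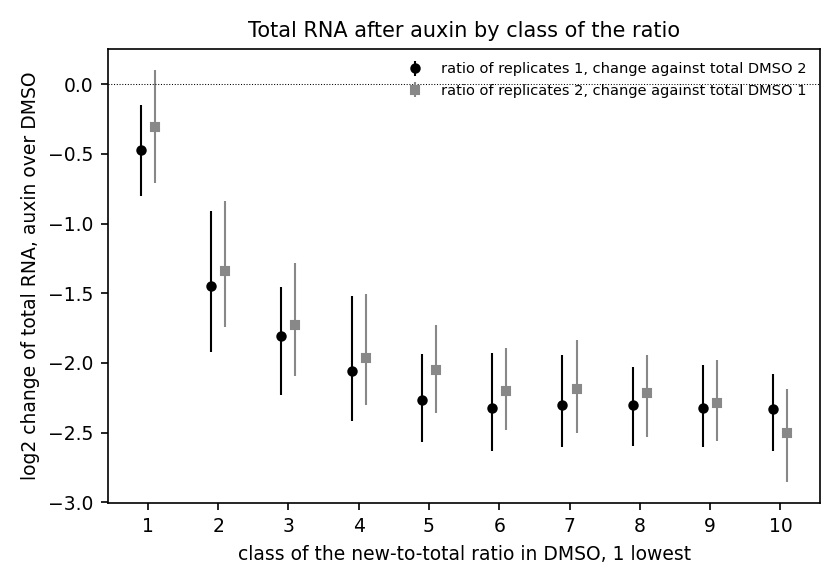
Median log2 change of total RNA, auxin over DMSO (y axis), in 10 equal classes of the ratio of newly synthesized to total RNA in DMSO (x axis), with quartiles as bars, for 2 arrangements of libraries in which no library enters both axes. Total RNA of the lowest class stood at 72.3% and 81.1% of DMSO, and the classes from the 5th upward lie between 17.6% and 24.2%.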

How the data were processed

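Libraries were stranded and depleted of ribosomal RNA, per the labels' protocols. Per the submitters' processing notes, the data rest on the sacCer3 build and bcl2fastq 2.17.1.14 was used. Neither aligner nor counter, nor its use of strand, is named: these are not given in the sources used here. Per the file headers, the authors deposited raw counts per feature, a normalized signal (the count divided by 1 size factor per library, as the values show) and this signal per kb. The authors also deposited log2 fold changes and p-values of auxin against DMSO, which were not used for any result. The newly synthesized RNA table breaks off in its last row.

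Tables were joined by feature identifier. The main test on the counts of the 4 DMSO libraries was the quasi-likelihood F test of edgeR 4.0.16 in R 4.3.3, with fraction as the only term. Scaling used the authors' size factors (0.613 and 0.657 for newly synthesized RNA, 1.09 and 0.728 for total RNA), with newly synthesized RNA shifted by 1.97 on the log2 scale so that the median transcript has a ratio of 0. Transcripts with a mean of at least 10 counts in each fraction were tested, with Benjamini-Hochberg adjustment over all 2821. On simulated counts 100 of 100 transcripts changed by 0.75 and 100 of 100 changed by 1.5 on the log2 scale were called, and 0.420% of 2621 unchanged ones. The simulation gave every transcript and both fractions the same dispersion, and left most transcripts unchanged. In the data the replicates differed more in total RNA, and 64.0% of transcripts were called. The simulated shares thus do not measure how the test performs on these data. Alternatives were TMM scaling, library totals, DESeq2 1.42.0, other count minimums, a replicate block and leaving out each library.

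Named genes have a gene name, at least 100 mean counts in each fraction, a call, a log2 ratio of at least 1 in size and no overlap of the fractions, the 12 highest and 12 lowest of 333. The highest and lowest of each list, members of described families, and unnamed or other genes chosen after their values were seen were added. The transcripts and the 28 lists were chosen with earlier results of these data known. Names stand beside 41.0% of the transcripts, so lists hold only named genes unless an identifier or description pattern was used. The series calls the libraries of a group biological replicates, and SEs and p-values rest on 2 libraries per fraction. Their dispersion was estimated for both fractions jointly, with information shared over transcripts. An SE thus does not measure a transcript's own spread alone. PRM7, with replicate log2 ratios of 2.41 and 4.08, had an SE of 0.209. YLL010C, with 2.54 and 2.53, had one of 0.206. Sequences and motifs were not analysed here.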

Additional observations from a re-analysis of the deposited data

How the results depend on the processing

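No call turned direction under any alternative run. Transcripts called higher and lower numbered 1130 and 1090 with TMM scaling, 1056 and 1115 with library totals, and 906 and 980 with DESeq2. With a minimum of 50 counts they numbered 854 and 938. A minimum of 1 count kept the same transcripts as the main run, so it could only repeat its 866 and 940 calls. Leaving out 1 library gave 505 to 748 higher and 698 to 834 lower, the fewest without total RNA replicate 2. The SD over transcripts of the difference between replicates was 0.228 (log2) in total RNA and 0.0824 in newly synthesized RNA, so total RNA limits the precision. With the replicate number as a block 1055 were higher and 1096 lower, among them 4 stress transcripts higher, 9 splicing factors higher, 11 amino acid synthesis transcripts lower and 1 mating transcript lower. The labels number the libraries of both fractions 1 and 2, and whether same-numbered libraries share an extract is not stated. Deviations of same-numbered libraries correlated at 0.163 over transcripts. With only 2 pairs, and noisier total RNA, this value cannot decide whether the numbers pair the libraries. Of the ratios of named genes 4 changed sign, and none of these was called: over the left-out libraries CLB1 ran -0.16 to 0.11 (above 0 without newly synthesized replicate 1 and without total RNA replicate 2), TPS1 -0.27 to 0.047 (above 0 without total RNA replicate 1) and the dubious frame YMR173W-A -0.30 to 0.084 (above 0 without total RNA replicate 2). In 19 cases a named gene's call was lost and in 5 gained, and the cause was not tested.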

Other observations

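By the deposited gene annotation, 413 terms had 10 to 300 transcripts, 227 of them with a median log2 ratio above 0 and 186 below. They were looked at after the values were seen, and overlap in their genes, so they are given as a description. Over all transcripts 30.7% were called higher and 33.3% lower. Values relative to length classes are not given for these terms, and in the longest length class 166 of 282 transcripts were higher. Proteins of the cell surface and of polarized growth stood at the top. Of 21 transcripts of membrane-anchored proteins 16 were higher and 0 lower (median 1.66), among them the hydrophilin YNL190W (2.81) and YLR040C (2.19), described as a blocker of a-factor that is specific to alpha cells. All 10 transcripts of sites of polarized growth were higher (median 0.88), and of 13 bud site selection transcripts 10 were higher and 1 lower (median 1.03), with CDC24, the exchange factor of Cdc42, at 1.17 and CHS5, of the exomer coat, at -0.95. Of 37 transcripts of intracellular signal transduction 28 were higher and 2 lower (median 0.71). Of 59 annotated to serine/threonine kinase activity 35 were higher and 2 lower (median 0.50). Not all of the 59 are described as kinases, an example being YNL278W (0.95), described as part of the Ccr4-Not complex.

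The cell wall annotation was mixed. Of 47 transcripts 28 were higher and 11 lower (median 0.78), beside 30.7% higher and 33.3% lower over all transcripts. Among the lowest were FBA1 (-3.05) and TDH3 (-1.40), glycolytic enzymes that are also found at the wall, and secreted acid phosphatases such as YAR071W (-2.53). Of 11 negative regulators of translation 8 were higher and 3 lower (median 0.84), with YKL204W, described as a competitor of eIF4G for eIF4E, at 2.44 and CAF20, which also binds eIF4E, at -1.91. Purine synthesis had 12 of 13 lower and 0 higher (median -0.96). Of 15 transcripts annotated to the proteasome core, 9 were lower and 3 higher (median -0.81). The 3 higher were the core subunits YOR157C (0.79) and SCL1 (0.39), and PCA1 (0.35), which is described as a cadmium transporter.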
